A study of Rattus norvegicus and Mus musculus with 34 samples.

Results

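Healing tissue from rats whose sensory nerve had been left intact was compared between day 3 and day 7 after a bone defect, across all 20022 genes listed for each rat. Members were taken by their sample labels: 3 rats of the sensory nerve+ group at day 3 and 4 rats of the same group at day 7, which made 7 of the 23 rats and 7 of the 34 samples of the series. All were wild-type (WT) male Sprague-Dawley rats of 6 to 8 weeks. Each had received a standardized periodontal bone defect on the buccal side of the mandible at the molars, followed by penicillin injections, and the tissue inside the defect was collected. The labels call its cell type "Mixed cells", so each library was a whole tissue sample. A further 8 rats of days 3 and 7, in which a segment of the inferior alveolar nerve had been removed during the same operation (sensory nerve− group), served for comparison. The comparison of days asked which tissues and programs gained or lost RNA between the acute phase of healing and the phase in which repair tissue is laid down.

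A bone defect first fills with clotted blood, into which neutrophils and monocytes move and in which cytokines, low oxygen and rapid cell division prevail. Granulation tissue with new vessels and collagen follows, and bone cells then form and remodel woven bone. The molar region of the mandible also borders on the periodontal ligament, the tooth germ tissue of the growing incisor and the masticatory muscles. Skeletal muscle that has been cut heals through satellite cells, which divide, become myoblasts, fuse and form new fibres that first use embryonic and neonatal myosins.

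Library totals of the 7 rats lay between 15331439 and 18269414 expected counts, so depth differed little. The libraries differed more in composition. Erythroid genes took 15.4%, 5.05% and 4.28% of the counts in day 3 rats 1, 2 and 3, and 0.302%, 3.6%, 0.263% and 21.6% in day 7 rats 1 to 4, so that blood content varied within both days. Day 3 rat 1 stood apart from the other rats of its day in genes of tooth, epithelium and osteoblasts, with a lower mean log2 level of each. The summed CPM of osteoblast genes did not set it apart, with 38100, 29870 and 44190 in day 3 rats 1 to 3. Day 7 rat 3 had the lowest mean log2 level of contractile muscle genes and the highest of tooth and epithelial genes in its day. Across genes, the log-scale profile of day 7 rat 3 was about as close to day 3 rat 2 (Pearson's r = 0.908) as to day 7 rats 2 (r = 0.907) and 1 (r = 0.898), whereas day 7 rats 1 and 2 were closest to each other (r = 0.978). These correlations describe single libraries across genes, which are not independent replicates. In such bulk samples, fewer cells of a type and less RNA per cell cannot be told apart.

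**Figure D1:**
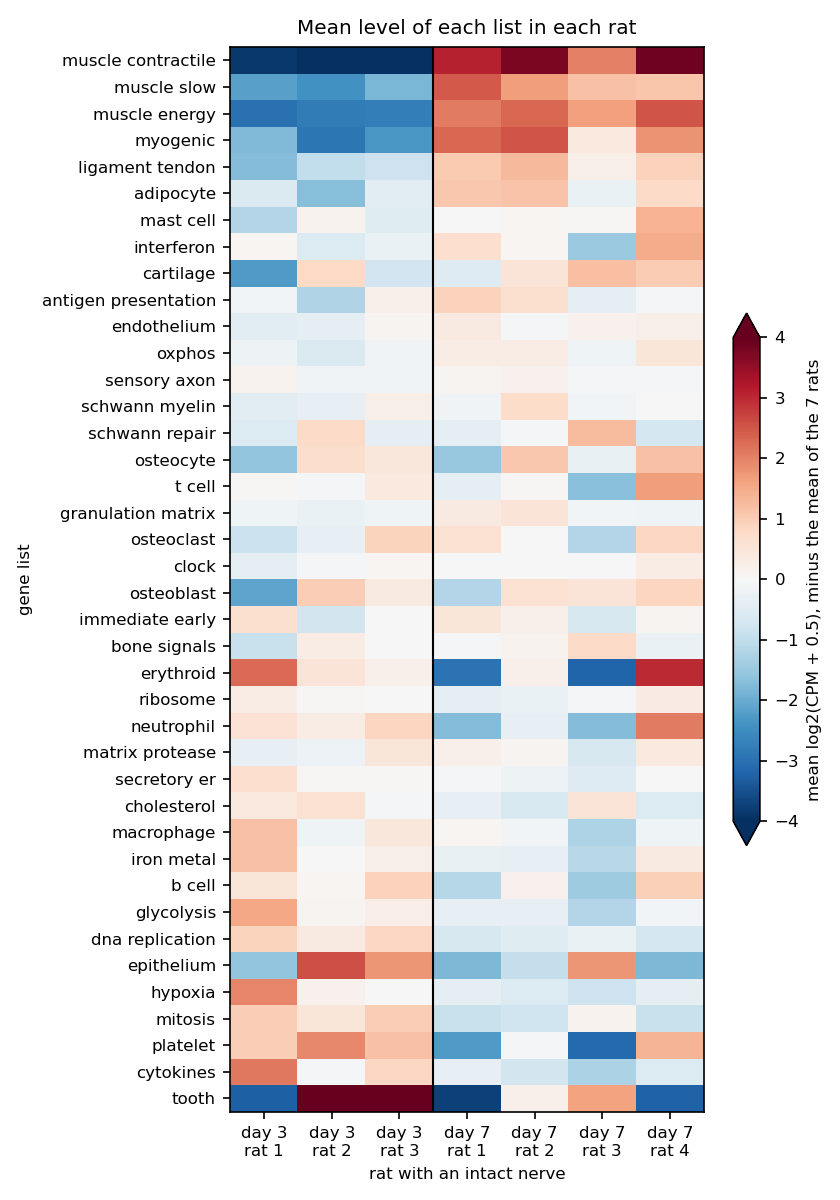
Mean log2(CPM + 0.5) of the tested genes of 40 gene lists (vertical axis) in each of the 7 rats (horizontal axis), shown as the difference from the mean of the 7 rats on a colour scale that ends at −4 and 4. The 4 muscle lists separate the days, while the erythroid, tooth and epithelium lists vary among rats of 1 day.

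Of 15016 genes with enough counts to be tested, 1002 (6.67%) passed an adjusted p of 0.05 in edgeR's quasi-likelihood test with Benjamini-Hochberg adjustment. The 733 genes that were higher at day 7 made up 4.88% of the genes tested, and the 269 that were lower made up 1.79%, so that 73.2% of the calls were higher. With libraries scaled by their totals in place of TMM (trimmed mean of M values), 579 genes were called and 87.6% of them were higher. The higher genes moved further. Their median log2 fold change was 2.72 and 344 of them exceeded 3, whereas among the lower genes the median size was 1.27 and 15 lay below −3. Over all genes tested the median log2 fold change was 0.05. Genes whose day 3 and day 7 rats did not overlap numbered 2193 in the higher direction (14.6%) and 1522 in the lower (10.1%). Single rats decided much of the count. Without day 3 rat 1 it was 276, without day 3 rat 3 it was 254, without day 7 rat 1 it was 318, without day 7 rat 2 it was 283 and without day 7 rat 4 it was 510, while without day 7 rat 3 it was 1547.

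**Figure D2:**
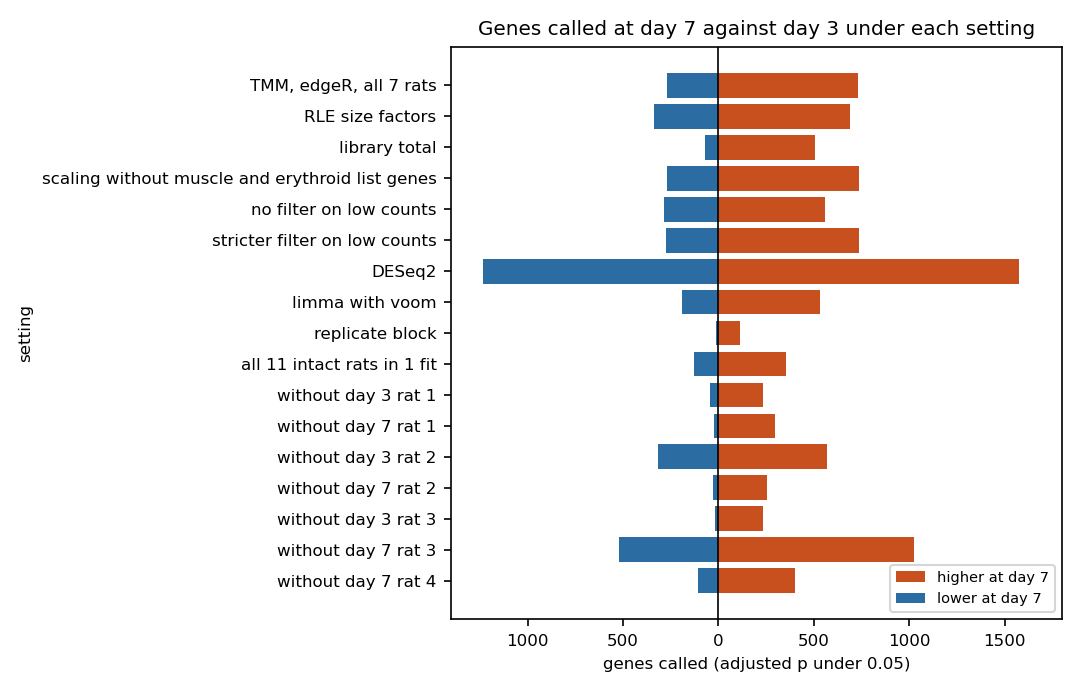
Number of genes called higher (orange, to the right) and lower (blue, to the left) at day 7 than at day 3 under each processing setting (vertical axis). The lower calls varied between 10 with the replicate block and 1234 with DESeq2, and the higher calls between 112 and 1574 with the same settings.

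Gene lists of 41 tissues and programs, 583 genes in all, were used to describe what moved, and 40 of them held at least 1 tested gene. Of the 733 higher genes, 52 were in the 4 muscle lists and 70 in any list. Of the 269 lower genes, 26 were in the lists of DNA replication and mitosis and 46 in any list. Most called genes therefore lay outside the lists. The calls of each list below can be set beside the shares over all genes tested, 4.88% higher and 1.79% lower. In what follows, levels are CPM values, counts relative to the TMM-scaled size of a library, in the order of rats 1 to 3 at day 3 and rats 1 to 4 at day 7, and a change is the log2 fold change of day 7 against day 3 with its standard error (SE).

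**Figure D3:**
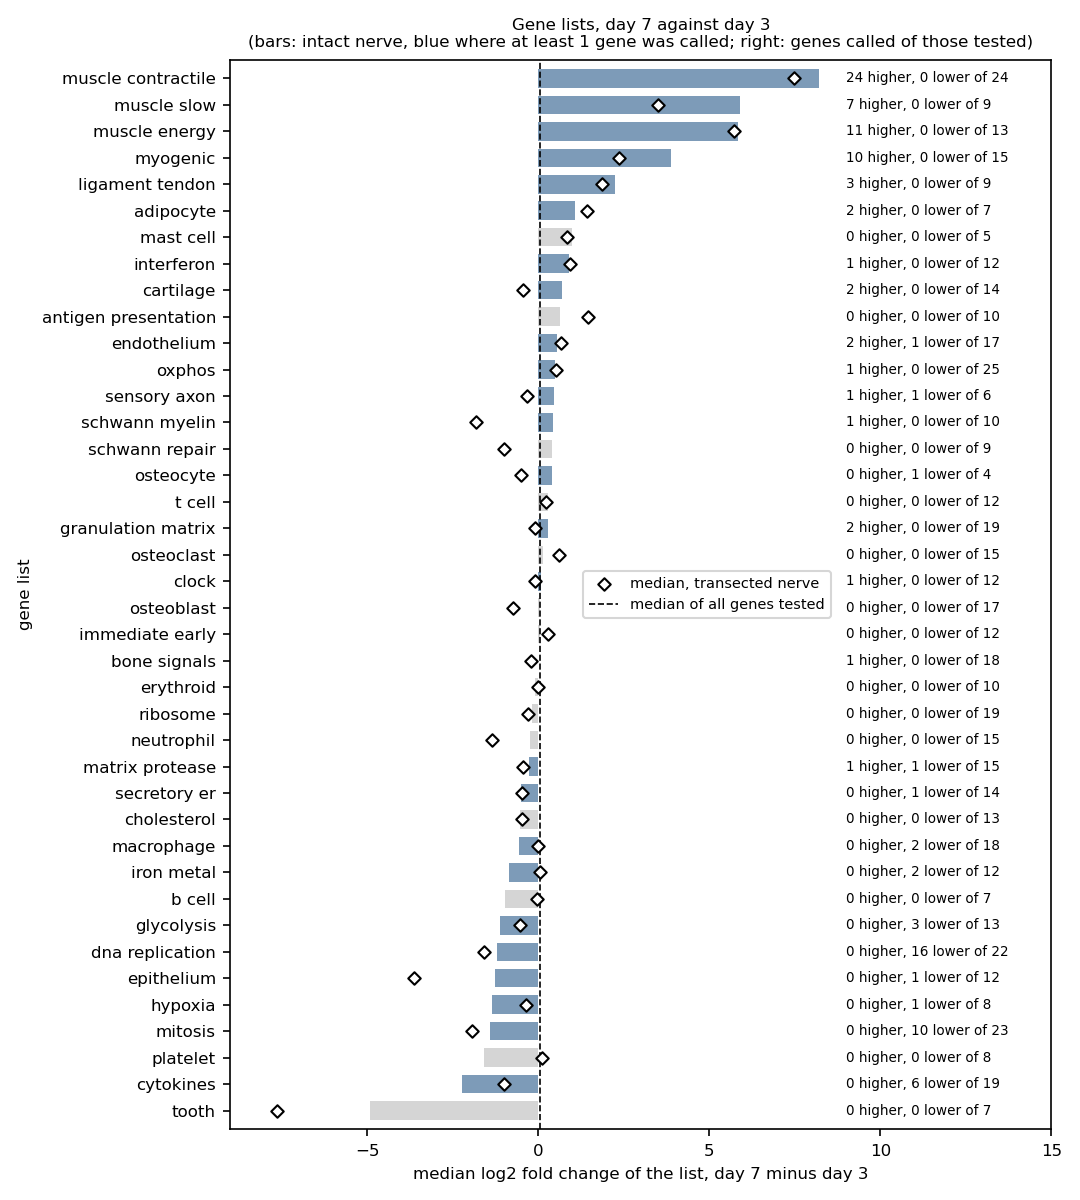
Median log2 fold change (horizontal axis, day 7 minus day 3) of 40 gene lists (vertical axis), as bars for the rats with an intact nerve and diamonds for the rats with a transected nerve, with the median of all tested genes as a dashed line at 0.05. Muscle lists lie farthest to the right, with medians from 3.88 to 8.20, and the lists of tooth, cytokine and cell cycle genes to the left.

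Skeletal muscle genes showed the largest change. Every one of the 24 listed genes of the fast contractile apparatus was tested, and 24 were higher at day 7 and 0 lower, with a median of 8.20 against 0.05 over all genes. Together the 62 genes of the 4 muscle lists took 0.123%, 0.171% and 0.152% of the counts at day 3 and 3.68%, 5.32%, 2.04% and 3.53% at day 7. Acta1, the skeletal muscle actin, had 24.5, 10 and 27 CPM at day 3 and 4810, 8931, 2477 and 5130 CPM at day 7. All day 7 rats lay far above all day 3 rats, and the change was 8.02 ± 0.76 (SE, adjusted p = 0.00317). Ckm, the creatine kinase of muscle, had 8.17, 1.56 and 3.69 CPM at day 3 and 1209, 2576, 771 and 3293 CPM at day 7, a change of 8.78 ± 0.99 (SE, adjusted p = 0.00553). Day 7 rat 3 was the lowest of its group in both genes. Atp2a1, the calcium pump of fast fibres, had 4.56, 2.38 and 4.32 CPM at day 3 and 1831, 3053, 793 and 4412 CPM at day 7, a change of 9.39 ± 0.86 (SE, adjusted p = 0.00298). The 4 day 7 rats again kept apart from the day 3 rats. Acta1, Ckm and Atp2a1 were called in 7 of 7 fits that left out 1 rat. The whole list kept between 20 and 24 calls in those fits. It gave 21 calls with all 11 intact rats in 1 fit and 9 with the replicate number as a block. Among the alternatives that kept all rats, Atp2a1 was always called, whereas Acta1 and Ckm each lost the call in at least 1.

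The fast myosin heavy chains, which set how quickly a fibre contracts, did not move alike across rats. Myh2, the chain of oxidative fast fibres, had 1.7, 0.778 and 0.579 CPM at day 3 and 1110, 627, 867 and 108 CPM at day 7. Myh1, the chain of intermediate fast fibres, had 10, 1.99 and 5.74 CPM at day 3 and 1001, 4026, 280 and 4163 CPM at day 7. Myh4, the chain of the fastest fibres, had 0.409, 0 and 0.0526 CPM at day 3 and 93.8, 166, 12.2 and 1150 CPM at day 7. Day 7 rat 4 was thus lowest in Myh2 and highest in Myh1 and Myh4, and no gene of the 3 overlapped between days. The change was 9.39 ± 1.09 for Myh2 (SE, adjusted p = 0.00584) and 8.65 ± 1.38 for Myh1 (SE, adjusted p = 0.017). Myh2 was called in 7 of 7 fits that left out 1 rat. Myh1 was not called without day 3 rat 3, day 7 rat 2 or day 3 rat 1, where its change was 9.22 with an adjusted p of 0.0655. The myosin heavy chain genes are close copies of each other, and how the authors' counting shared reads between them is not given, so their separate levels are uncertain.

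Structural proteins of the sarcomere moved more evenly. Xirp2, which binds actin at the fibre ends and at sites of damage, had 0.136, 0.341 and 0.474 CPM at day 3 and 145, 275, 149 and 207 CPM at day 7, a change of 9.18 ± 0.50 (SE, adjusted p = 0.000505). Myot, a protein of the Z disc, had 0.477, 0.195 and 0.105 CPM at day 3 and 248, 306, 170 and 189 CPM at day 7, a change of 9.82 ± 0.55 (SE, adjusted p = 0.000505). In both genes the day 7 rats lay close together and far above the day 3 rats. Tcap, which anchors titin, changed by 6.91 ± 0.42 (SE, adjusted p = 0.000745) and Casq1, which stores calcium in fast fibres, by 8.31 ± 0.65 (SE, adjusted p = 0.00163).

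A few muscle genes were almost without counts at day 3. Abra, an actin-binding protein of striated muscle, and Lrrc30 had 0 counts in all day 3 rats. Against a floor of 3 counts per library, 0.204 CPM, Abra was at least 75-fold higher at day 7 and Lrrc30 at least 51.3-fold higher. Ppp1r3a, the glycogen-targeting subunit of a muscle phosphatase, had 3 counts in the day 3 rats together and 3320 in the day 7 rats, a ratio of 855 (95% interval 292 to 4150). Apobec2, a muscle protein of the cytidine deaminase family, had 3 and 2869 counts, a ratio of 739 (253 to 3590). These intervals and the floor cover counting error only. Genes of this kind passed the filter on low counts through the day 7 rats. Among the 733 higher genes, 10 had 0 counts in all day 3 rats and 22 had 1 to 3.

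Promoter letters were looked up in the lists of fast fibre, myogenic, DNA replication, mitosis, cytokine and osteoblast genes, whether or not their genes were called. The 250 bases before the start of 21 of the 24 fast fibre genes were present in the RefSeq promoters of the rat assembly GRCr8. It is a later build than mRatBN7.2, to which the authors aligned. A MEF2 motif, the binding letters of a factor family of muscle, was found in 5 of the 21 (23.8%) and in 3.07% of all 27457 promoters. The E-box CAGCTG, read by myogenic factors, was in 6 (28.6%, against 11.9% of all). The CArG box of serum response factor was in 2 (9.52%, against 1.5%) and the TATA box TATAAA in 7 (33.3%, against 13.1%). Each was searched on both strands. The TATA box was also in 4 of 11 promoters (36.4%) of the osteoblast list, which gave 0 calls. It was in 6 of 15 promoters of the cytokine list, where the called genes were lower at day 7. The myogenic list had it in 2 of 12, the mitosis list in 1 of 19 and the DNA replication list in 0 of 16. The TATA share was thus not particular to the lists that rose. The promoter of Myh1, chr10:52384662-52384911 on the plus strand, is shown because Myh1 had the smallest p among the called list genes whose promoter holds both a MEF2 motif and a TATA box. Capitals mark the MEF2 motif, at −212 to −203 from the start, which overlaps a TATA box on the other strand, and a further TATA box at −33 to −28. A match of letters is a description and does not show that a factor binds there.
Myh1: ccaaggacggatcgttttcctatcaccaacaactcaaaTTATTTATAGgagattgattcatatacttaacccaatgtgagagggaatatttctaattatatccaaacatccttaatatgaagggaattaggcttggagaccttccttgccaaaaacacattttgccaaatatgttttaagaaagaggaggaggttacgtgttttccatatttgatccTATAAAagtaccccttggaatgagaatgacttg

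Genes of slow fibres and of the energy supply of muscle were higher as well. In the slow list 9 genes were tested, of which 7 were higher at day 7 and 0 lower, with a median of 5.91. Tnnt1, the troponin T of slow fibres, had 2.32, 1.07 and 2.47 CPM at day 3 and 211, 105, 106 and 46.1 CPM at day 7, a change of 5.91 ± 0.66 (SE, adjusted p = 0.00553). Tnni1, the slow troponin I, had 2.32, 1.8 and 4.69 CPM at day 3 and 416, 547, 144 and 173 CPM at day 7, a change of 6.76 ± 0.75 (SE, adjusted p = 0.0053). Neither gene overlapped between days. Myh7, the slow myosin heavy chain, had 2 counts in the day 3 rats together and 605 in the day 7 rats, a ratio of 234 (95% interval 64.4 to 1930). The slow list gave 4 higher calls without day 3 rat 1, and 1 lower call without day 3 rat 2. It gave 4 higher calls with all 11 intact rats in 1 fit and 2 with the replicate number as a block. Its members without a call were Tpm3, a tropomyosin that many other cells also use, with 523, 329 and 496 CPM at day 3 and 283, 252, 199 and 294 CPM at day 7, and Atp2a2, the calcium pump of slow muscle and of most other cells, with 338, 245 and 360 CPM at day 3 and 704, 683, 290 and 415 CPM at day 7.

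Of 13 tested genes of muscle energy supply, 11 were higher at day 7 and 0 lower, with a median of 5.84. Each fit that left out 1 rat also gave 11, while the replicate number as a block gave 9. All 11 intact rats in 1 fit gave 8. Ckmt2, the mitochondrial creatine kinase of muscle, had 0.749, 0.486 and 1 CPM at day 3 and 122, 105, 95.8 and 71.9 CPM at day 7, a change of 7.04 ± 0.35 (SE, adjusted p = 0.000505). Pygm, which breaks down muscle glycogen, had 5.52, 1.85 and 1.79 CPM at day 3 and 403, 612, 207 and 660 CPM at day 7, a change of 7.28 ± 0.73 (SE, adjusted p = 0.00365). Mb, the oxygen-binding myoglobin, had 3.95, 0.486 and 1.9 CPM at day 3 and 831, 803, 572 and 2176 CPM at day 7, a change of 9.04 ± 1.04 (SE, adjusted p = 0.00564). All 3 genes kept the days apart, and day 7 rat 4 had the most Mb. Ampd1, a deaminase of muscle energy balance, changed by 6.84 ± 0.37 (SE, adjusted p = 0.000505) and Pfkm, the phosphofructokinase of muscle, by 3.13 ± 0.33 (SE, adjusted p = 0.00449).

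Genes of new fibres and of their makers formed a further group. Of 15 tested genes of satellite cells, myoblasts and new fibres, 10 were higher at day 7 and 0 lower, with a median of 3.88. Myh3, the embryonic myosin heavy chain, had 3.68, 3.7 and 12.5 CPM at day 3 and 1465, 1928, 476 and 336 CPM at day 7, a change of 7.31 ± 1.02 (SE, adjusted p = 0.0107). Myh8, the neonatal chain, had 2.11, 1.26 and 2.05 CPM at day 3 and 1567, 2866, 604 and 1386 CPM at day 7, a change of 9.79 ± 0.77 (SE, adjusted p = 0.00163). Both developmental chains were low in all 3 rats at day 3 and high in all 4 at day 7. Mymk, which lets myoblasts fuse, had 1.16, 0.681 and 2.74 CPM at day 3 and 70.9, 86, 13.4 and 48.6 CPM at day 7, a change of 5.16 ± 0.83 (SE, adjusted p = 0.0174). Myog, which drives myoblasts to differentiate, had 9.88, 3.89 and 7.9 CPM at day 3 and 117, 127, 32.1 and 58.9 CPM at day 7, a change of 3.54 ± 0.60 (SE, adjusted p = 0.0208). Day 7 rat 3 was lowest in Mymk and Myog, yet above all day 3 rats. Myf6, a factor of maturing fibres, changed by 7.26 ± 0.57 (SE, adjusted p = 0.00163).

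The satellite cell genes Pax7, Myod1 and Cdh15 were not called by edgeR, whereas DESeq2 called Pax7 (adjusted p = 0.00516) and Cdh15 (adjusted p = 0.00919). Pax7, which marks satellite cells, had 7.02, 0.973 and 1.16 CPM at day 3 and 27.4, 37.6, 7.2 and 16.2 CPM at day 7, with an estimate of 2.87 ± 0.91 (SE, adjusted p = 0.107). Myod1, a factor of activated satellite cells, had 28.3, 2.29 and 1.63 CPM at day 3 and 35.2, 25, 4.63 and 25.1 CPM at day 7. Day 3 rat 1 had more Myod1 than 3 of the 4 day 7 rats, so the groups overlapped. Cdh15, a cadherin of satellite cells and myoblasts, had 22.1, 5.45 and 7.21 CPM at day 3 and 60.5, 55.8, 21 and 39.7 CPM at day 7, with an estimate of 1.94 ± 0.59 (SE, adjusted p = 0.0993). The count of 10 calls in this list fell to 3 without day 3 rat 1. It fell to 6 without day 3 rat 3, day 7 rat 1 or day 7 rat 2. With the replicate number as a block it was 2, with all 11 intact rats in 1 fit 4. Limma with voom gave 5 and DESeq2 gave 13.

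Subunits of the muscle acetylcholine receptor, through which a motor nerve excites a fibre, were among the calls. Chrng, the gamma subunit of fetal and denervated muscle, had 1.23, 0.632 and 1.32 CPM at day 3 and 58, 53.8, 9.86 and 34.6 CPM at day 7, a change of 5.21 ± 0.73 (SE, adjusted p = 0.0107). Chrnd, the delta subunit, had 1.36, 0.584 and 1.16 CPM at day 3 and 95.9, 84.7, 19.6 and 86.9 CPM at day 7, a change of 6.12 ± 0.71 (SE, adjusted p = 0.00582). Chrna1, the alpha subunit, had 7.9, 4.28 and 6.63 CPM at day 3 and 113, 101, 13.4 and 141 CPM at day 7, a change of 3.88 ± 0.79 (SE, adjusted p = 0.0349). In all 3 subunits day 7 rat 3 was the lowest of its group and still above every day 3 rat. Chrnd was called in 7 of 7 fits that left out 1 rat, but lost its call in at least 1 alternative that kept all rats. Chrng was lost without day 3 rat 1 or 3, and Chrna1 was kept only without day 7 rat 3. The E-box CAGCTG was in the promoters of 3 of 12 genes of this list (25.0%), against 11.9% of all promoters. Shown are the 120 bases before the start of Chrng, chr9:95325864-95325983 on the plus strand of GRCr8, with the E-box in capitals at −26 to −21 from the start.
Chrng: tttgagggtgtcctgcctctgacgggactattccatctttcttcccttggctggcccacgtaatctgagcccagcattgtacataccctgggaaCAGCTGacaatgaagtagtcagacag

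**Figure D4:**
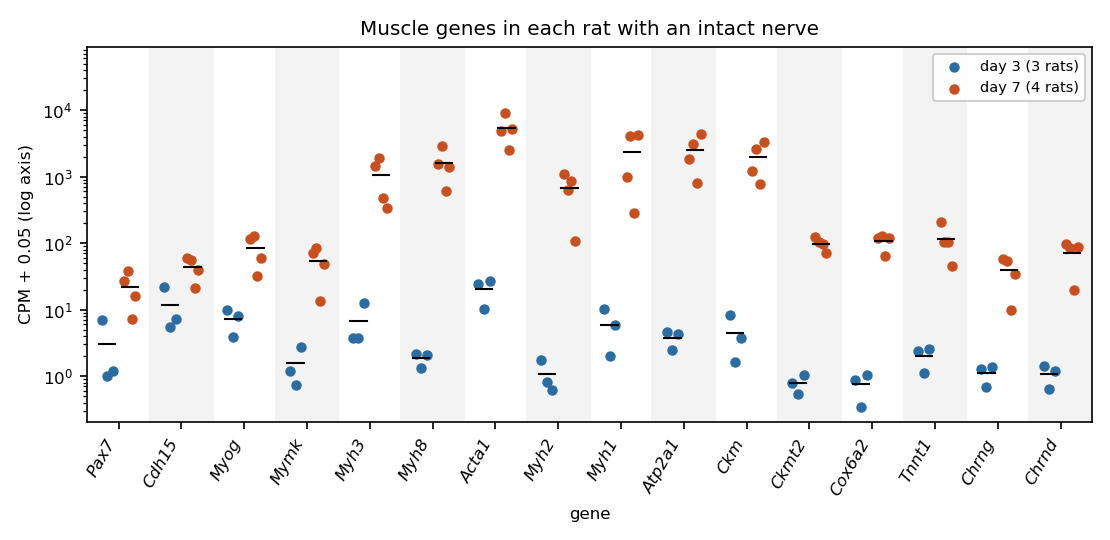
CPM + 0.05 on a log axis (vertical) of 16 muscle genes (horizontal) in each rat with an intact nerve, blue for the 3 rats of day 3 and orange for the 4 of day 7, with black lines at the mean CPM of each day. From the fibre-forming genes on the left to the contractile and receptor genes on the right, the days overlap in Cdh15, nearly meet in Pax7, and stand far apart in Acta1, Myh8 and Atp2a1.

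Genes of DNA replication were lower at day 7. Of 22 tested genes 16 were lower and 0 higher, with a median of −1.20 against 0.05 over all genes, and 20 of the 22 showed no overlap between days. Rrm2, the subunit of ribonucleotide reductase that limits the supply of DNA building blocks, had 133, 64.2 and 120 CPM at day 3 and 15.5, 16.7, 19 and 18.4 CPM at day 7, a change of −2.60 ± 0.25 (SE, adjusted p = 0.00343). The day 7 rats lay within a narrow range, below all day 3 rats. Mcm5, a subunit of the helicase that opens DNA for copying, had 87.4, 51.4 and 78.5 CPM at day 3 and 15.8, 17.7, 25.1 and 14.5 CPM at day 7, a change of −1.98 ± 0.26 (SE, adjusted p = 0.00841). The other helicase subunits moved in the same direction, with Mcm6 at −1.59 ± 0.22 (SE, adjusted p = 0.0104), Mcm3 at −1.55 ± 0.22 (SE, adjusted p = 0.0118) and Mcm2 at −1.20 ± 0.23 (SE, adjusted p = 0.0273). Pcna, the clamp that holds the polymerase on DNA, had 129, 85.6 and 135 CPM at day 3 and 68, 58, 60.9 and 66.3 CPM at day 7, a change of −0.88 ± 0.18 (SE, adjusted p = 0.0341). Rrm2 and Mcm5 were called in 7 of 7 fits that left out 1 rat, and Pcna only without day 3 rat 2 or day 7 rat 3. The 16 calls fell to 4 without day 3 rat 1, day 7 rat 1 or day 7 rat 2. They fell to 2 without day 3 rat 3, and library totals gave 6. With all 11 intact rats in 1 fit there were 2 calls. The replicate number as a block gave 0, so that Rrm2 and Mcm5 also lost their calls there.

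Mitosis genes followed the same direction with fewer calls. Of 23 tested genes 10 were lower and 0 higher, with a median of −1.40, and 22 of the 23 did not overlap between days. Cdk1, the kinase that starts mitosis, had 73.3, 46.6 and 70.9 CPM at day 3 and 18.1, 21.5, 31.2 and 19.1 CPM at day 7, a change of −1.5 ± 0.25 (SE, adjusted p = 0.0195). Plk1, a kinase of spindle assembly, had 48.4, 30.1 and 47.4 CPM at day 3 and 10.1, 10.5, 18.1 and 10.9 CPM at day 7, a change of −1.76 ± 0.28 (SE, adjusted p = 0.0162). Mki67, the antigen of dividing cells, had 181, 118 and 178 CPM at day 3 and 55.3, 48.4, 88.6 and 52 CPM at day 7, a change of −1.38 ± 0.26 (SE, adjusted p = 0.0283). In these 3 genes day 7 rat 3 was the highest of its group and day 3 rat 2 the lowest of its group, with the days still apart. Ccnb1, the cyclin partner of Cdk1, changed by −1.59 ± 0.34 (SE, adjusted p = 0.0418) and Aurka, a centrosome kinase, by −1.64 ± 0.27 (SE, adjusted p = 0.0192). The count of 10 depended on single rats. It rose to 22 without day 7 rat 3 and fell to 4 without day 7 rat 4. It was 0 without day 3 rat 1, day 3 rat 3, day 7 rat 1 or day 7 rat 2. It was also 0 with library totals, with the replicate number as a block and with all 11 intact rats in 1 fit.

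Cell cycle promoters were read for the letters that tie genes to the division cycle. The cell cycle homology region TTTGAA was in 8 of 19 promoters of the mitosis list (42.1%) and in 1 of 16 of the DNA replication list (6.25%), against 16% of all promoters, and the CCAAT box in 15 (78.9%) and 10 (62.5%), against 34.3%. Both were searched on both strands of 250 bases before the start. Shown are the 120 bases before the start of Cdk1, chr20:19265173-19265292, and of Mcm5, chr19:13488693-13488812, both on the plus strand of GRCr8. Capitals in Cdk1 mark 2 CCAAT boxes, written as ATTGG on this strand, and 2 copies of TTTGAA, and in Mcm5 they mark 2 CCAAT boxes.
Cdk1: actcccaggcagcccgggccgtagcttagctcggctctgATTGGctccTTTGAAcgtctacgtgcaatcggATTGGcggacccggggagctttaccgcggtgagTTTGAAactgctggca
Mcm5: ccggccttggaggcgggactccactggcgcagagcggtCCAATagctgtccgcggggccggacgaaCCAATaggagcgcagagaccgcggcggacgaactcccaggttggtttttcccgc

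Some inflammatory cytokines and chemokines were lower at day 7. Of 19 tested genes 6 were lower and 0 higher, with a median of −2.24 that was −1.06 without day 3 rat 1, and 7 did not overlap between days. Cxcl1, which draws neutrophils, had 24, 1.46 and 4.42 CPM at day 3 and 0.52, 0.271, 0.187 and 0.0898 CPM at day 7, a change of −5.14 ± 1.06 (SE, adjusted p = 0.0356). Ccl2, which draws monocytes, had 178, 37.6 and 89 CPM at day 3 and 29.9, 9.66, 16.6 and 16.5 CPM at day 7, a change of −2.48 ± 0.57 (SE, adjusted p = 0.0483). Ccl7, a chemokine of the same family, had 101, 21.9 and 51.6 CPM at day 3 and 12.9, 3.91, 6.68 and 4.94 CPM at day 7, a change of −3.02 ± 0.60 (SE, adjusted p = 0.0325). Day 3 rat 1 had the most and day 3 rat 2 the least of all 3 chemokines among the day 3 rats. Tnf, the inflammatory cytokine of macrophages, had 12.4, 4.43 and 7.58 CPM at day 3 and 1.77, 1.25, 0.421 and 1.71 CPM at day 7, a change of −2.66 ± 0.57 (SE, adjusted p = 0.0399). Cxcl2 changed by −5.06 ± 1.16 (SE, adjusted p = 0.0492) and Cxcl3 by −5.09 ± 1.15 (SE, adjusted p = 0.047). The 6 calls became 0 without day 3 rat 1, day 3 rat 3, day 7 rat 2 or day 7 rat 4, 1 without day 7 rat 1 and 3 without day 7 rat 3. Library totals gave 5, DESeq2 8 and limma with voom 0.

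Il1b and Il6 were not called. Il1b, a cytokine of activated myeloid cells, had 105, 27 and 29.3 CPM at day 3 and 7.9, 11.8, 1.17 and 35.3 CPM at day 7, with an estimate of −1.94 ± 0.99 (SE, adjusted p = 0.282). Day 7 rat 4, whose library held the most erythroid counts, lay above 2 of the 3 day 3 rats. Il6, a cytokine of the acute phase, had 6.95, 0.341 and 1.42 CPM at day 3 and 1.04, 1.14, 0.14 and 0.449 CPM at day 7. Day 3 rat 1 was the highest, and day 3 rat 2 lay below 3 of the 4 day 7 rats. An NF-kB motif, the letters read by a factor of inflammatory signalling, was in 8 of 15 promoters of the list (53.3%), against 6.41% of all. The 120 bases before the start of Ccl7, chr10:67513975-67514094 on the plus strand of GRCr8, are shown with that motif in capitals at −59 to −50 from the start.
Ccl7: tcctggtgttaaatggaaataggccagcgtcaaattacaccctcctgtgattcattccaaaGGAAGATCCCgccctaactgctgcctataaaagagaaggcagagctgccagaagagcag

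Macrophage genes did not move as 1 group. Of 18 tested genes 2 were lower and 0 higher at day 7, with a median of −0.57. Arg1, an arginase of macrophages in wounds, had 503, 84.5 and 74.7 CPM at day 3 and 3.69, 8.74, 4.35 and 8.44 CPM at day 7, a change of −5.14 ± 0.81 (SE, adjusted p = 0.0169). Msr1, a scavenger receptor, had 355, 119 and 136 CPM at day 3 and 53.6, 46.2, 30.4 and 35.6 CPM at day 7, a change of −2.29 ± 0.42 (SE, adjusted p = 0.0252). Both genes kept the days apart. General markers overlapped. Cd68, a lysosomal marker of macrophages, had 368, 166 and 417 CPM at day 3 and 470, 298, 110 and 281 CPM at day 7, and Csf1r, the receptor that keeps macrophages alive, had 539, 326 and 677 CPM at day 3 and 493, 352, 133 and 414 CPM at day 7. C1qa, a complement subunit made by tissue macrophages, had 81.1, 43.4 and 52 CPM at day 3 and 182, 138, 74.7 and 115 CPM at day 7, with an estimate of 1.12 ± 0.35 (SE, adjusted p = 0.103). Mrc1, the mannose receptor, had an estimate of −1.51 ± 0.42 (SE, adjusted p = 0.0799). DESeq2 called both, and C1qa was also called without day 7 rat 3. Arg1 was not called without day 7 rat 1, 2 or 4, nor Msr1 without these or day 3 rat 3. The list gave 0 lower calls without day 7 rats 1, 2 or 4 and 1 without day 3 rat 3, and 2 higher calls appeared without day 7 rat 3.

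A few genes of sugar use and of low oxygen passed the test, and day 3 rat 1 was the highest of the 7 rats in each of those named here. Of 13 tested glycolysis genes 3 were lower and 0 higher (median −1.11), and of 8 tested hypoxia genes 1 was lower and 0 higher (median −1.34). Slc2a1, the common glucose transporter, had 228, 97 and 93.2 CPM at day 3 and 32.9, 26.2, 25.2 and 26.8 CPM at day 7, a change of −2.33 ± 0.34 (SE, adjusted p = 0.012). Eno1, a glycolytic enzyme of most cells, had 2799, 1060 and 1270 CPM at day 3 and 553, 485, 383 and 503 CPM at day 7, a change of −1.83 ± 0.37 (SE, adjusted p = 0.0331). Ero1a, an oxidase of the endoplasmic reticulum that low oxygen induces, had 352, 77.8 and 64.6 CPM at day 3 and 27, 25.2, 16.6 and 25.1 CPM at day 7, a change of −2.81 ± 0.61 (SE, adjusted p = 0.0416). All day 3 rats exceeded all day 7 rats in these genes. Adm, a vasodilator peptide induced by low oxygen, had an estimate of −3.27 ± 0.80 (SE, adjusted p = 0.0581) and was called without day 3 rat 2 and with library totals, and Vegfa, the vessel growth factor, overlapped between days with 254, 178 and 98.8 CPM at day 3 and 204, 140, 256 and 132 CPM at day 7. The glycolysis count was 0 without day 7 rat 2 and 1 without day 3 rat 1, day 3 rat 3, day 7 rat 1 or day 7 rat 4. The hypoxia call was lost without day 3 rat 3, without each day 7 rat and with limma with voom, and the count was 2 without day 3 rat 2. Without day 3 rat 1 the median was −0.58 for glycolysis and −0.73 for hypoxia.

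F13a1, the clotting factor subunit that crosslinks fibrin and is also made by macrophages, had 1101, 295 and 173 CPM at day 3 and 28.1, 45.9, 17.4 and 68 CPM at day 7, a change of −3.72 ± 0.75 (SE, adjusted p = 0.0339). Its days did not overlap, and it kept its call only without day 3 rat 2 or day 7 rat 3. Hmox1, which breaks down heme, had 2239, 604 and 593 CPM at day 3 and 97.4, 89.1, 26 and 256 CPM at day 7, without a call in edgeR (estimate −3.29 ± 0.83, SE, adjusted p = 0.0626) and with one in DESeq2 (adjusted p = 0.000274).

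A pair of metal transporters was lower at day 7. Slc39a8, which imports zinc and manganese, had 92.5, 91.9 and 136 CPM at day 3 and 23.2, 21.9, 32.3 and 22.8 CPM at day 7, a change of −2.09 ± 0.21 (SE, adjusted p = 0.00367). Slc39a14, a related transporter, had 193, 149 and 174 CPM at day 3 and 83.7, 83.9, 102 and 97.9 CPM at day 7, a change of −0.91 ± 0.14 (SE, adjusted p = 0.017). They were the 2 lower calls among 12 tested genes of iron and metal handling (median −0.86, 0 higher), and without day 3 rat 3 or day 7 rat 1 the count was 1. Without day 3 rat 1 the median was −0.24. Creld2, a chaperone of the endoplasmic reticulum, was the 1 lower call among 14 genes of the unfolded protein response (median −0.50, 0 higher), with a change of −1.09 ± 0.20 (SE, adjusted p = 0.0269) and a call that was kept only without day 3 rat 2 or day 7 rat 3.

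**Figure D5:**
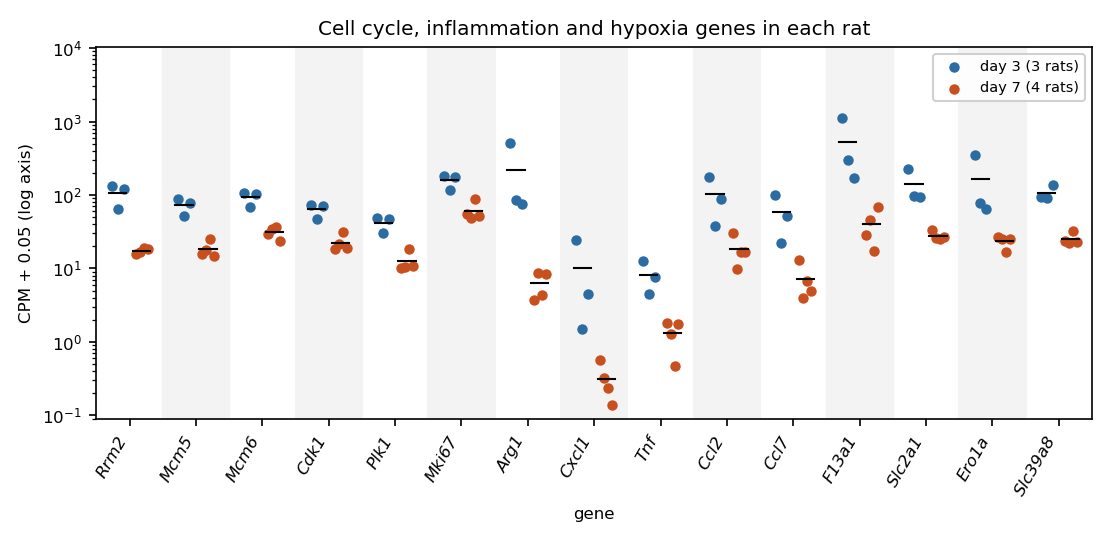
CPM + 0.05 on a log axis (vertical) of 15 genes that were lower at day 7 (horizontal) in each rat with an intact nerve, blue for the 3 rats of day 3 and orange for the 4 of day 7, with black lines at the mean CPM of each day. Rrm2 and Slc39a8 show tight day 7 groups. In Arg1, Cxcl1 and F13a1 day 3 rat 1 is the highest, and all day 7 rats lie below all day 3 rats.

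Connective tissue genes rose in part. Of 9 tested genes of periodontal ligament and tendon 3 were higher at day 7 and 0 lower (median 2.25), and of 19 tested genes of granulation tissue matrix 2 were higher and 0 lower (median 0.29). Ogn, a small proteoglycan of fibrous and bone matrix, had 43.1, 115 and 130 CPM at day 3 and 652, 572, 330 and 437 CPM at day 7, a change of 2.38 ± 0.44 (SE, adjusted p = 0.0269). Aspn, a proteoglycan of the periodontal ligament, had 38.4, 50.8 and 122 CPM at day 3 and 776, 702, 203 and 617 CPM at day 7, a change of 3.03 ± 0.62 (SE, adjusted p = 0.035). Scx, the transcription factor of tendon and ligament cells, had 3.07, 2.82 and 2.58 CPM at day 3 and 21.9, 24.6, 4.21 and 16.4 CPM at day 7, a change of 2.57 ± 0.59 (SE, adjusted p = 0.0485). The days did not overlap in these genes, and day 7 rat 3 was the lowest of its group in each. Dcn, which binds collagen fibrils, changed by 1.15 ± 0.23 (SE, adjusted p = 0.0349) and Kera, a proteoglycan of tendon and cornea, by 6.09 ± 1.08 (SE, adjusted p = 0.0235). Both lists gave 0 calls when any rat other than day 7 rat 3 was left out, and 3 calls each without day 7 rat 3.

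Col3a1, the collagen of young granulation tissue, had 8939, 6089 and 8346 CPM at day 3 and 12174, 16141, 7068 and 11636 CPM at day 7, so the days overlapped. In the granulation tissue list 3 genes were higher and 2 lower at day 7 without overlap. Postn, a matrix protein of ligament and healing wounds, had 471, 988 and 896 CPM at day 3 and 4907, 6005, 1689 and 2655 CPM at day 7. Every day 7 rat had more Postn than every day 3 rat, but the estimate of 2.28 ± 0.55 did not pass in edgeR (SE, adjusted p = 0.0555), while it did in DESeq2 (adjusted p = 0.000128), in limma with voom and without day 7 rat 3. Mmp12, an elastase of macrophages, had 22.4, 14.2 and 43.4 CPM at day 3 and 583, 477, 172 and 251 CPM at day 7, a change of 3.80 ± 0.61 (SE, adjusted p = 0.0175). It was the 1 higher call among 15 matrix proteases and inhibitors (median −0.28, 1 lower). The call of Mmp12 was lost without day 3 rat 1 or day 7 rat 2, and 2 genes of the list were higher without day 3 rat 2 or day 7 rat 3. Of 14 tested cartilage genes, Comp and Ucma were higher and 0 lower (median 0.70). Comp, a matrix protein of cartilage and tendon, had 0.545, 0.535 and 0.737 CPM at day 3 and 7.75, 15.5, 2.01 and 20.1 CPM at day 7, a change of 4.21 ± 0.83 (SE, adjusted p = 0.031). The cartilage list gave 0 calls without day 3 rat 1, day 3 rat 3 or day 7 rat 2 and 1 without day 7 rat 1 or 4. Its median was 2.93 without day 3 rat 2 and 0.37 without day 3 rat 1. The defining cartilage gene Sox9 overlapped, with 2.25, 44.4 and 11.9 CPM at day 3 and 5.2, 6.19, 57.9 and 7.09 CPM at day 7.

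Genes of osteoblasts and osteoclasts gave 0 calls between the days. In the osteoblast list 0 of 17 tested genes were called in either direction (median 0.05, the same as over all genes), in the osteoclast list 0 of 15 (median 0.15), and 0 genes of either list kept the days apart. At an unadjusted p under 0.05 edgeR also gave 0 genes of both lists, and DESeq2 called 0. Over all 15016 genes tested these counts were 3718 and 2808. With 1 rat left out the osteoblast median lay between −0.34 (without day 3 rat 1) and 0.73 (without day 3 rat 2), and the osteoclast median between −0.08 (without day 3 rat 2) and 0.79 (without day 3 rat 3). Runx2, the factor that commits cells to the osteoblast lineage, had 40, 92.1 and 102 CPM at day 3 and 58.9, 76.9, 100 and 84 CPM at day 7. Ibsp, a protein of mineralizing matrix, had 11.5, 465 and 671 CPM at day 3 and 96.1, 537, 60.2 and 1580 CPM at day 7. Day 3 rat 1 had the least of both genes, and the other day 3 rats lay among the day 7 rats in Ibsp and near their top in Runx2. Ctsk, the collagen-degrading protease of osteoclasts, had 163, 388 and 1319 CPM at day 3 and 2716, 1713, 510 and 2574 CPM at day 7, and Acp5, the acid phosphatase of osteoclasts, had 136, 126 and 481 CPM at day 3 and 615, 219, 113 and 889 CPM at day 7. In both, day 3 rat 3 lay among the day 7 rats. Sfrp4, a secreted inhibitor of Wnt signals, was the 1 higher call among 18 bone growth and resorption signals (median −0.01, 0 lower). It had 11.4, 6.37 and 9.63 CPM at day 3 and 195, 210, 82.4 and 60.1 CPM at day 7, a change of 3.91 ± 0.56 (SE, adjusted p = 0.0118), and was lost without day 3 rat 1 and without day 3 rat 3. In the same list 1 lower call appeared without day 3 rat 2, where the median was 0.73, and 1 without day 7 rat 3, where it was −0.32. Pdpn, a membrane protein of young osteocytes and many other cells, was the 1 lower call among 4 tested osteocyte genes (median 0.39) with a change of −1.35 ± 0.24 (SE, adjusted p = 0.0242), lost without day 3 rat 3 and without day 7 rats 1, 2 or 4. The osteocyte median ran from −0.32 without day 7 rat 4 to 0.90 without day 3 rat 3.

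Tooth genes varied widely among the rats of both days. The median of 7 tested genes of enamel and dentin matrix was −4.93, with 0 calls by edgeR (2 genes at an unadjusted p under 0.05), 3 lower calls by DESeq2, 0 by limma with voom and 0 genes without overlap. Amelx, the main enamel matrix protein, had 2.32, 2564 and 11889 CPM at day 3 and 0.676, 23.9, 276 and 1.8 CPM at day 7. Dspp, the dentin matrix protein, had 0.0681, 351 and 0.842 CPM at day 3 and 0, 286, 243 and 0.18 CPM at day 7. Krt5, a keratin of the basal layer of epithelium, had 0.545, 478 and 204 CPM at day 3 and 0.104, 6.95, 226 and 0.269 CPM at day 7. Amelx and Krt5 were thus highest in day 3 rats 2 and 3 and day 7 rats 2 and 3, and Dspp was high in these rats except day 3 rat 3, where it was close to 0. The part of this RNA in the other results was not tested. Dsg3, an adhesion protein of epithelium, was the 1 lower call among 12 tested epithelial genes (median −1.26, 0 higher), with a change of −2.04 ± 0.36 (SE, adjusted p = 0.022), kept only without day 3 rat 3 or day 7 rat 3 and lost with limma with voom. The epithelial median was −0.34 without day 3 rat 2 and −2.05 without day 7 rat 3.

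Vessel genes gave calls in both directions. Of 17 tested endothelial genes 2 were higher and 1 lower (median 0.53). Cldn5, a tight junction protein of endothelium, had 6.54, 7.73 and 6.74 CPM at day 3 and 27, 17.5, 32.7 and 29.1 CPM at day 7, a change of 1.92 ± 0.24 (SE, adjusted p = 0.00784), and was called in 7 of 7 fits that left out 1 rat. Sox17, a factor of arterial endothelium, had 4.97, 9.97 and 11.2 CPM at day 3 and 30.6, 22.4, 20 and 30.9 CPM at day 7, a change of 1.57 ± 0.33 (SE, adjusted p = 0.0366). Apln, a peptide of sprouting vessel tips, had 82.4, 34.7 and 62.4 CPM at day 3 and 8.79, 9.66, 21.8 and 6.82 CPM at day 7, a change of −2.34 ± 0.47 (SE, adjusted p = 0.0325). The junction gene and the tip peptide thus moved in opposite directions, and none of the 3 overlapped between days. Pecam1, the general endothelial marker, had an estimate of 1.02 ± 0.28 (SE, adjusted p = 0.0789 in edgeR), and was called by DESeq2 (adjusted p = 0.0096) and without day 7 rat 3. The list gave 3 higher and 2 lower calls without day 7 rat 3 and 6 and 2 with DESeq2. With the replicate number as a block, and with all 11 intact rats in 1 fit, it gave 0 calls, so Cldn5 was lost. Sox17 was kept only without day 7 rat 3, and Apln only without that rat or day 3 rat 2.

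Fat and clock genes gave few calls. Plin4, a lipid droplet protein of fat and muscle, had 0.136, 0.0486 and 0.526 CPM at day 3 and 10.1, 18.4, 5.47 and 27.2 CPM at day 7, a change of 5.96 ± 0.96 (SE, adjusted p = 0.0172). Lipe, the hormone-sensitive lipase, changed by 1.62 ± 0.23 (SE, adjusted p = 0.0122). They were the 2 higher calls among 7 tested adipocyte genes (median 1.07, 0 lower). The count was 0 without day 3 rat 1 or day 7 rat 2 and 1 without day 3 rat 3, where the median was 1.87. The defining adipocyte genes Adipoq, Plin1 and Cidec had too few counts to be tested, at most 17 in any of the rats. A change of fat cells is thus not shown by their own markers. Npas2, a clock transcription factor, had 4.77, 4.57 and 4.11 CPM at day 3 and 34.2, 27.6, 15.1 and 38.3 CPM at day 7, a change of 2.68 ± 0.34 (SE, adjusted p = 0.00804), and was the 1 call among 12 clock genes (median 0.07). Its call was lost without day 3 rat 3.

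Of 6 tested genes of sensory neurons and axons, 1 was higher and 1 lower (median 0.46). Trpv1, the heat and capsaicin channel of pain fibres, had 0.613, 0.486 and 0.421 CPM at day 3 and 4.26, 3.96, 1.64 and 1.89 CPM at day 7, a change of 2.53 ± 0.50 (SE, adjusted p = 0.031). Tubb3, a tubulin of neurons that dividing and migrating cells also use, had 34.5, 31.4 and 22 CPM at day 3 and 5.56, 8.3, 14.9 and 7.63 CPM at day 7, a change of −1.68 ± 0.35 (SE, adjusted p = 0.0366). Neither overlapped between days, and each kept its call only without day 7 rat 3. Sox10, the factor of Schwann cells, had 0.136, 0.195 and 0.158 CPM at day 3 and 1.66, 4.56, 2.06 and 0.449 CPM at day 7, a change of 3.69 ± 0.83 (SE, adjusted p = 0.0462). It passed the filter on low counts in 4 of the fits that left out 1 rat and was called only without day 7 rat 4. Sox10 was the 1 call among 10 tested genes of myelinating Schwann cells (median 0.43, 0 lower).

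Mitochondrial and interferon lists held 1 call each, while 4.88% of all genes tested were called higher. All 25 tested genes of the respiratory chain had a positive estimate (median 0.50) and Ndufa4, a subunit of the chain, was the 1 call. It had 68.5, 75.8 and 94.7 CPM at day 3 and 162, 158, 132 and 206 CPM at day 7, a change of 1.05 ± 0.20 (SE, adjusted p = 0.0274). The count was 8 without day 7 rat 3 and 0 without any other rat. Gbp2, an interferon-induced GTPase, was the 1 call among 12 interferon genes (median 0.90, 0 lower) with a change of 0.86 ± 0.18 (SE, adjusted p = 0.0366), kept only without day 3 rat 2 or day 7 rat 3, and the latter fit gave 2 calls. In 14 lists, with 159 tested genes, edgeR made 0 calls, while it called 6.67% of all genes tested. Besides osteoblasts, osteoclasts and tooth, they were the lists of neutrophils, T cells, B cells, mast cells, platelets, erythroid cells, repair Schwann cells, ribosomal proteins, antigen presentation, cholesterol synthesis and immediate early genes. Of their genes 16 had an unadjusted p under 0.05 in edgeR, and DESeq2 called 10 and limma with voom 0. Over all 15016 genes tested the same counts were 3718, 2808 and 722. Without day 7 rat 3 edgeR called 7 of 13 cholesterol synthesis genes lower and 1 gene each of the T cell and mast cell lists higher. Hbb, a globin of red cells, had 77258, 16796 and 14790 CPM at day 3 and 1016, 12933, 772 and 112610 CPM at day 7, and S100a8, an abundant neutrophil protein, had 49.7, 32.1 and 40.9 CPM at day 3 and 1.4, 14.2, 2.43 and 116 CPM at day 7. In both, day 7 rat 4 was the highest of the 7 rats, and day 7 rats 1 and 3 were the lowest.

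The same days were compared in 8 rats with a transected nerve, which share no rat with those above. The transected day 7 rats were deposited in a table of their own, so a difference between tables and the group cannot be told apart. Of 14576 genes tested there, 537 were higher at day 7 (3.68%) and 987 lower (6.77%). Of the 733 genes that were higher with an intact nerve 688 were tested, 682 had the same direction and 259 were called higher, which was 35.3% of the intact calls and 48.2% of the transected calls. The 269 lower genes gave 265 tested, 265 in the same direction and 210 called lower, which was 78.1% of the intact and 21.3% of the transected calls. Among all 14513 genes tested in both, 48.7% were higher at day 7 in the transected rats. The transected counts rested on single rats too, with 0 calls by edgeR without transected day 3 rat 1 (3602 genes at an unadjusted p under 0.05) and 3 without transected day 7 rat 3.

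Muscle lists had medians of 7.47 for the contractile, 3.49 for the slow, 5.74 for the energy and 2.35 for the myogenic genes in the transected rats, with 16, 1, 7 and 2 genes called higher. The change of Acta1 was 5.93 there (adjusted p = 0.0967), that of Myh8 10.84 (adjusted p = 0.014) and that of Myog 1.23 (adjusted p = 0.654). In the DNA replication list 20 and in the mitosis list 22 genes were called lower, with medians of −1.58 and −1.93, and Rrm2 changed by −2.59 (adjusted p = 0.0218). The median of myelinating Schwann cell genes was −1.83 with a transected and 0.43 with an intact nerve, and that of osteoblast genes −0.73 and 0.05. A direct test of whether the day effect differed between intact and transected rats, over 15526 genes, gave 0 calls (0%) by edgeR. At an unadjusted p under 0.05 it gave 132 genes, and the smallest adjusted p was 0.9999. With no difference at all, more of the 15526 genes would pass that unadjusted threshold, so the p-values lay high here. In simulated data this test found 32% of differences of 1.5 and 68% of differences of 3 on the log2 scale. Those differences were placed only in genes above a floor of mean counts, so the shares need not hold for genes of low counts. The 0 calls therefore do not show that the day effects were alike. DESeq2 called 1 gene and the replicate block 1. For Sox10 the difference was 8.40 on the log2 scale (unadjusted p = 0.00945 from edgeR) and for Slc39a8 −1.25 (unadjusted p = 0.0234 from edgeR), neither of which passed the adjustment. The same values of the other named genes are not reported here.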

How the data were processed

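Healing tissue of 3 rats at day 3 and 4 rats at day 7 with an intact sensory nerve was analysed, and 8 rats with a transected nerve were analysed for comparison. Per the labels, each library came from a separate rat. Libraries were sequenced on the DNBSEQ platform and low-quality reads were removed. Reads were aligned to mRatBN7.2 with HISAT (the submitters' processing notes also list Bowtie2). The authors deposited an expected count per gene and rat, of which 36.4% of values were whole numbers, and the counting program is not given in the sources used here. Reads that fit several genes are shared out in expected counts, so near-identical genes are uncertain.

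Expected counts were rounded to whole numbers, filtered by filterByExpr and scaled by TMM. Days were compared in edgeR 4.0.16 by its quasi-likelihood F test at a Benjamini-Hochberg adjusted p of 0.05 over all genes tested, each comparison on its own rats, and the interaction of day and nerve on all 15. The SE was derived from the F statistic. The fits were tested on simulated data with known changes and with none. Counts were drawn at the fitted spread, and changes were placed only in genes above a floor of mean counts. The shares found need not hold for genes of low counts. The comparison of intact rats found 33% of changes of 1.5 and 82% of changes of 3 on the log2 scale, with 5 false calls. With no change it gave 0 calls. Many changes of the smaller size would thus be missed.

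The rats and gene lists were chosen with earlier results of these data known, and lists were described by counts and medians only. Named genes are the 3 defining genes of each list, the 3 of smallest p in each list, and the 15 largest changes in each direction among called genes without overlap and with a mean of at least 10 CPM in the higher group. Myh1, Tpm3, Atp2a2, Casq1, Mb, Pfkm, Myh3, Chrng, Chrna1, Mymk, Cdh15, Mcm3 and C1qa were added after their values were seen. Some genes that this rule names are not reported here.

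Alternatives were RLE size factors, library totals, scaling without muscle and erythroid genes, no filter, a stricter filter (1 CPM in 3 libraries), DESeq2 1.42.0, limma 3.58.1 with voom, the replicate number as a block, all 11 intact rats in 1 fit, and each rat left out. Promoters are from RefSeq (GRCr8). Of the 15016 genes tested between the days with an intact nerve, 11444 symbols matched a promoter, and motifs were searched in the 250 bases before the start. Positions in mRatBN7.2 were not used here. R 4.3.3 and Python 3.11.15 with pandas 2.3.3, numpy 2.4.6 and matplotlib 3.10.9 were used.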

Additional observations from a re-analysis of the deposited data

Results flagged for a closer look

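Each gene and list level was checked in the 4 day 7 rats for a single rat far from the other 3, over 94 named genes and 40 lists, and 11 such values were found. Chance alone sets apart about 1 in 20 groups. Day 7 rat 3 accounted for most of them. It had 64.6 CPM of Cox6a2, a muscle subunit of the respiratory chain, against 119 to 128 in the others, 19.6 CPM of Chrnd against 84.7 to 95.9, and 22.3 CPM of Lipe against 36.7 to 38.2. It was above the others in Ccnb1 (33.7 CPM against 15 to 16.4), Plk1 (18.1 CPM against 10.1 to 10.9), Slc39a8 (32.3 CPM against 21.9 to 23.2) and the mean log2 CPM of the mitosis list (4.91 against 3.87 to 3.97). Day 7 rat 4 had 2180 CPM of Mb against 572 to 831, a mean log2 CPM of 2.77 for mast cell genes against 1.41 to 1.48, and 4.43 for clock genes against 4.14 to 4.17. Day 7 rat 2 had a mean log2 CPM of 3.81 for genes of myelinating Schwann cells against 2.93 to 3.08.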

How the results depend on the processing

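The count of 1002 genes called between the days with an intact nerve (733 higher, 269 lower) was 579 with library totals (72 lower), 2808 with DESeq2 (1574 higher, 1234 lower) and 484 with all 11 intact rats in 1 fit (356 higher, 128 lower). With the replicate block it was 122 (112 higher, 10 lower). Deviations from the mean of the day, across genes, gave r = 0.409, −0.329 and −0.0942 for rats numbered 1, 2 and 3 at both days. Between rats of different numbers r ran from −0.572 to 0.696. Per the labels each library came from a separate rat. With so few rats, these values cannot settle whether a shared number marks a batch. Leaving out 1 rat gave 254 to 1547 calls, 234 to 1027 higher and 19 to 520 lower. RLE size factors gave 1022, scaling without muscle and erythroid genes 1002, no filter 845, a stricter filter 1015 and limma with voom 722. No gene called in the text's comparison was called in the other direction in any setting. The interaction of day and nerve gave 0 calls by edgeR (132 at an unadjusted p under 0.05), 1 with DESeq2 (Pou3f1), 1 with the replicate block (LOC100360117) and 0 to 0 with 1 rat left out. The 1524 calls with a transected nerve became 3217 with DESeq2, 2 with the replicate block and 0 to 1359 with 1 rat left out. The causes of these shifts were not tested.

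Of 1499 values of single genes over the alternatives, 1086 kept direction and side of the threshold, 385 kept direction and lost the call, 28 gained one and 0 reversed. Of 640 list medians, 623 moved by less than the spread between rats and 17 by more. In 28 of 40 lists the median kept its sign in all 16 alternatives, and in the other 12 it had a size of at most 0.459. With 3 and 4 rats and large spread within each day, a gene without a call is not shown to be level. Counts near 0 at day 3 leave the size of the largest increases imprecise.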

Other observations

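Rats of day 14 with an intact nerve, which entered the comparison of days 3 and 7 only in the alternative fit of all 11 intact rats, give the later levels of the same lists. Scaled together with the other intact rats, the 24 contractile genes of fast muscle summed to 52900, 521, 28930 and 35630 CPM in day 14 rats 1 to 4, against 181 to 338 CPM at day 3 and 11720 to 40010 CPM at day 7. Day 14 rat 2 was thus close to day 3 in muscle genes. The same rat had 1340 CPM of mitosis genes, as in the day 3 rats (972 to 1384 CPM), against 267 to 641 CPM in the other day 14 rats, and 8660 CPM of neutrophil genes against 117 to 2016 CPM. Myelinating Schwann cell genes summed to 3232, 495, 727 and 1386 CPM at day 14, above all rats of day 3 (108 to 173 CPM) and day 7 (117 to 235 CPM). Tooth genes, which reached 23810 CPM in day 3 rat 3, stayed between 0.235 and 2.58 CPM at day 14.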
